A study of Rattus norvegicus with 9 samples.

Results

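The nuclei described here carried the authors' label for the distal convoluted tubule (DCT) in single-nucleus ATAC sequencing (snATAC-Seq) of rat kidneys. They were chosen by that label alone and numbered 4225 of 53298 nuclei (7.93%), which made DCT the 5th most frequent of 12 labels. The remaining labels of the distal nephron were the loop of Henle (LOH, 6113 nuclei), principal cells of the collecting duct (PC, 3388) and intercalated cells (IC, 2808).

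The DCT is the short segment that follows the thick ascending limb of the loop of Henle. Its cells take up sodium chloride through the thiazide-sensitive cotransporter NCC, the product of Slc12a3, and magnesium through the channel TRPM6, and the early part of the segment holds the calcium-binding protein parvalbumin (Pvalb). The late DCT passes into the connecting tubule, where cells respond to aldosterone through the mineralocorticoid receptor and begin to use the epithelial sodium channel, as principal cells do. Intercalated cells, which secrete acid or base, lie among these cells. Gene and peak values per nucleus were not used here, so the label could not be checked against Slc12a3, Trpm6 or Pvalb.

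All rats were Sprague-Dawley, and whole kidney was the tissue. The labels give an age of 6 weeks, whereas the study describes 6 weeks as a length of treatment. Control rats were sham operated and received no hormone. The DOCA rats had 1 kidney removed and were injected every week with deoxycorticosterone acetate, a mineralocorticoid, at 50 mg/kg, had vehicle by daily gavage and drank salt water. Finerenone rats (10 mg/kg/day) and Spironolactone rats (50 mg/kg/day) were given a mineralocorticoid receptor blocker in addition to DOCA, and Amiloride rats (20 mg/kg/day) a blocker of the epithelial sodium channel. By the labels, surgery and hormone, and by the methods salt, therefore separate Control from every other group together and cannot be told apart.

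Each group had 1 library from a scATAC kit and 1 from a Multiome kit, apart from Amiloride, whose only library used the Multiome kit. The libraries held 1817 to 15235 nuclei, of which 51 to 1065 were DCT nuclei, and 3809 DCT nuclei (90.2%) came from Multiome libraries against 82.2% of all nuclei. Values of a pair are given below with the scATAC library first. The codes of both DOCA libraries, and of both Spironolactone libraries, share a stem, as do those of the Control Multiome and Amiloride libraries. The Control Multiome and Amiloride libraries differ in treatment and so come from different rats, and a shared stem need not mark a shared rat. No source says if the DOCA pair or the Spironolactone pair derives from a single rat, and the spread within each may be technical. The 10 pairs of Multiome libraries shared 10 DCT barcodes in all, at most 4 in a pair, and no DCT barcode was shared between scATAC libraries or across kits.

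On the deposited UMAP, a 2-dimensional layout in which nuclei of like chromatin lie close together, DCT nuclei formed a body beside the PC nuclei. The median DCT point lay 3.52 UMAP units from the median PC point, 5.65 from that of LOH and 8.57 from that of IC. The coordinates have no physical unit and were computed after batch correction, so distances order the labels only roughly. Of the 15 nearest nuclei of a DCT nucleus, 89.5% on average were DCT, 6.10% PC and 1.28% LOH, where PC made up 6.36% and LOH 11.5% of all nuclei. The share of neighbours with a nucleus's own label was 91.9% for LOH, 88.6% for PC and 94.97% for IC, and DCT ranked 8th of the 12 labels, which ranged from 80.1% to 96.8%.

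DCT nuclei were mostly surrounded by each other, and PC nuclei and single LOH nuclei lay at their border. Of the 4225 nuclei, 2751 (65.1%) had DCT neighbours alone and 3847 (91.1%) had DCT as the label of most neighbours. At least 1 PC nucleus was among the neighbours of 628 DCT nuclei (14.9%), at least 1 LOH nucleus among those of 452 (10.7%), and both among those of 120. More DCT nuclei had a PC than a LOH neighbour in 6 libraries and fewer in 2 (Finerenone Multiome and Spironolactone scATAC), with Finerenone scATAC equal. The order depended on the number of neighbours: with 5, a PC neighbour was found for 10.96% and a LOH neighbour for 4.90% of DCT nuclei, and with 50 for 22.5% and 28.5%, with LOH higher in all 9 libraries. The median distance from a DCT nucleus to the nearest LOH nucleus was 0.266, against 0.573 to the nearest PC and 0.577 to the nearest IC nucleus. Among the 378 DCT nuclei that were not mostly surrounded by DCT, 263 had mostly PC neighbours and 17 mostly LOH neighbours. Seen from the other side, 36.7% of PC nuclei had a DCT neighbour, against 4.43% of LOH and 3.17% of IC nuclei. Outside the distal nephron the value was 8.93% for macrophage and 3.29% for endothelial nuclei, above and below that of LOH. The labels and the layout both draw on the same chromatin profiles. These values therefore describe how the label sits on the layout and are not a test of it.

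**Figure D1:**
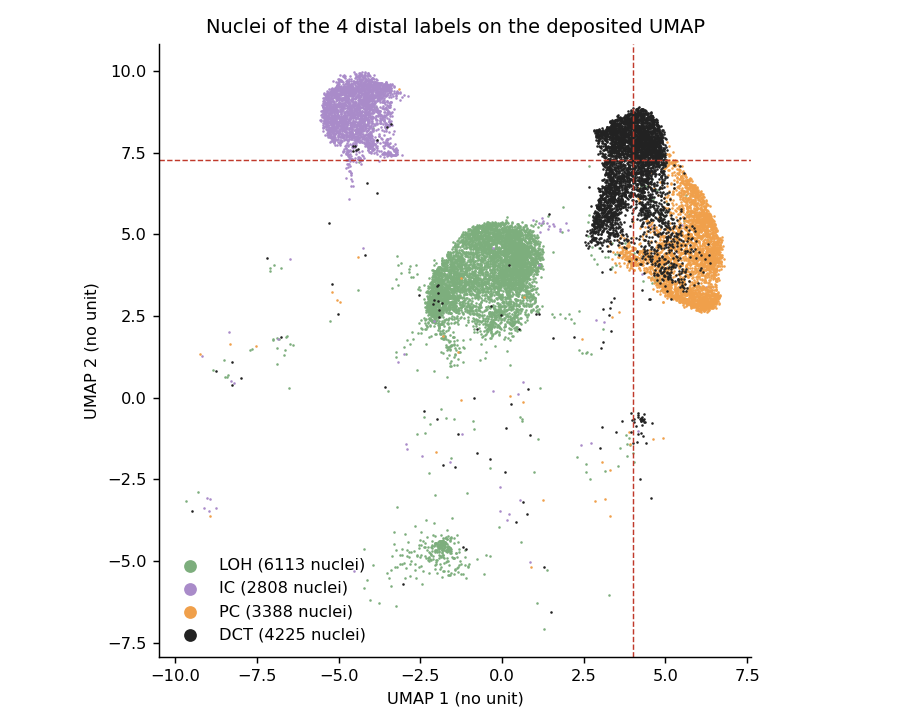
Nuclei of the DCT, LOH, PC and IC labels on the deposited UMAP (both axes without unit), 1 point per nucleus over all 9 libraries, with dashed lines at the median DCT point. The DCT body borders the PC nuclei at its lower right, lies apart from the main LOH and IC bodies although single LOH nuclei lie at its edge, and leaves a small separate piece of DCT nuclei near the coordinates 4.25 and -0.67.

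The share of DCT nuclei was taken over 3 denominators: all nuclei, nuclei outside the 3 proximal tubule labels (23996 nuclei, 17.6% of them DCT) and the 4 distal labels together (16534 nuclei, 25.6% of them DCT). The last leaves out the proximal tubule, whose nuclei made up between 41.3% and 81.2% of a library. Ranges after a share are exact Clopper-Pearson 95% intervals, which cover counting error alone. Fewer DCT cells in a kidney and fewer DCT nuclei recovered from it cannot be told apart.

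DCT nuclei made up 2.08% (1.55 to 2.72) and 9.15% (8.37 to 9.97) of all nuclei in the Control libraries, and 6.88% (5.91 to 7.95) and 11.4% (10.7 to 12.03) in the DOCA libraries. The Multiome library was the higher of each pair, and the ranges of the groups overlapped. Over non-proximal nuclei the shares were 11.04% and 15.6% in Control, a mean of 13.3% ± 3.21 (SD, n = 2), and 19.4% and 20.2% in DOCA, a mean of 19.8% ± 0.597 (SD, n = 2). Over distal nuclei they were 19.8% (15.1 to 25.3) and 21.9% (20.2 to 23.8) in Control, a mean of 20.9% ± 1.47 (SD, n = 2), and 29.9% (26.2 to 33.9) and 29.5% (27.9 to 31.0) in DOCA, a mean of 29.7% ± 0.339 (SD, n = 2). Both DOCA libraries lay above both Control libraries on the last pair of denominators. In Control and in DOCA the libraries of the pair lay closest together among distal nuclei. The Finerenone and Spironolactone pairs lay furthest apart there (SD 6.98 and 5.48 percentage points).

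Shares were compared on the log2 odds scale (the share over its remainder) with limma, with group and kit as terms over all 9 libraries. The DOCA minus Control change of the DCT share was 1.07 over all nuclei, 0.70 (SE 0.45) over non-proximal nuclei and 0.67 (SE 0.35, 95% interval -0.10 to 1.45) over distal nuclei. None passed an adjusted p of 0.05 (Benjamini-Hochberg, limma adjusted p = 0.132, 0.169 and 0.108). In the same comparisons 25%, 44.4% and 25% of the labels passed. Within the kits the change over distal nuclei was 0.78 (scATAC) and 0.57 (Multiome), nearer to each other than the 1.79 and 0.35 found over all nuclei. The distal change passed with only the Control and DOCA libraries in the model (0.67, limma adjusted p = 0.0424). Without the Control Multiome library the change over all nuclei was 1.93 (limma adjusted p = 0.00636), and without the Control scATAC library it was 0.20. Leaving out the Control scATAC library gave a distal change of 0.33 and a non-proximal change of 0.31, and leaving out Control Multiome gave 1.02 and 1.09.

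The 4 contrasts share the DOCA libraries, so a chance value in DOCA moves the contrasts with the drugs against the contrast with Control. In the Finerenone libraries DCT nuclei were 4.68% (3.75 to 5.75) and 4.35% (3.86 to 4.90) of all nuclei, 14.7% and 9.27% of non-proximal nuclei, and 23.8% and 13.9% of distal nuclei. Both libraries lay below both DOCA libraries on each denominator. The distal mean was 18.9% ± 6.98 (SD, n = 2), and the Multiome library held the lowest distal share of all 9 libraries. The Finerenone minus DOCA log2 change was -1.04 over all nuclei, -0.89 over non-proximal nuclei and -0.91 (SE 0.35, 95% interval -1.68 to -0.13) over distal nuclei, and none passed (limma adjusted p = 0.221, 0.131 and 0.0552). Of the labels in these comparisons, 16.7%, 33.3% and 0% passed, and in the last DCT and LOH had an unadjusted limma p under 0.05. The distal change was -0.45 within the scATAC kit and -1.36 within the Multiome kit. With 1 library left out it ranged from -1.31 to -0.50, and the non-proximal change from -1.38 to -0.40. The change over all nuclei was -0.34 (limma adjusted p = 0.835) when the Finerenone Multiome library was left out and -1.74 (limma adjusted p = 0.0478) when the Finerenone scATAC library was. Without the DOCA scATAC library the distal change was -1.11 (limma adjusted p = 0.0291).

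In the Spironolactone libraries DCT nuclei were 4.04% (3.33 to 4.85) and 6.99% (6.59 to 7.41) of all nuclei. Their share of non-proximal nuclei was 16.8% and 17.1%, a mean of 17.0% ± 0.2497 (SD, n = 2), below both DOCA libraries and above both Control libraries. Over distal nuclei the shares were 30.7% and 23.0%, on either side of the DOCA libraries. The Spironolactone minus DOCA log2 change was -0.79 over all nuclei, -0.27 over non-proximal nuclei and -0.21 (95% interval -0.99 to 0.56) over distal nuclei (limma adjusted p = 0.34, 0.831 and 0.628), where 0% of the labels passed on each denominator. In limma 3, 2 and 1 labels had an unadjusted p under 0.05 there, DCT not among them. Within the kits the distal change was 0.06 (scATAC) and -0.49 (Multiome), so its sign differed between the kits. With 1 library left out it ranged from -0.42 to -0.0066 (the latter without the DOCA Multiome library).

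The Amiloride library held 972 DCT nuclei, 11.8% (11.1 to 12.5) of all nuclei, 23.1% of non-proximal nuclei and 34.8% (33.1 to 36.6) of distal nuclei. Each was the highest value of the 9 libraries. The Amiloride minus DOCA log2 change was -0.01 (95% interval -1.47 to 1.45) over all nuclei, 0.30 over non-proximal nuclei and 0.51 (95% interval -0.47 to 1.498) over distal nuclei (limma adjusted p = 0.99, 0.682 and 0.367). Here 33.3%, 44.4% and 50% of the labels passed, DCT not among them. With 1 library left out, the non-proximal change ranged from 0.18 to 0.40 and the distal change from 0.36 to 0.77. Against the DOCA library of the same kit the changes were 0.06, 0.25 and 0.36. The fit assumes that the single Amiloride library varies like those of the other groups.

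The kit term was largest for the DCT share of all nuclei. The Multiome minus scATAC log2 change was 0.94 over all nuclei (unadjusted p = 0.0246, limma adjusted p = 0.0738), -0.02 over non-proximal nuclei (limma adjusted p = 0.943) and -0.35 over distal nuclei (limma adjusted p = 0.255), where 25%, 11.1% and 0% of the labels passed (6, 4 and 0 labels at an unadjusted limma p under 0.05). A test of the difference between these kit terms was not run.

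**Figure D2:**
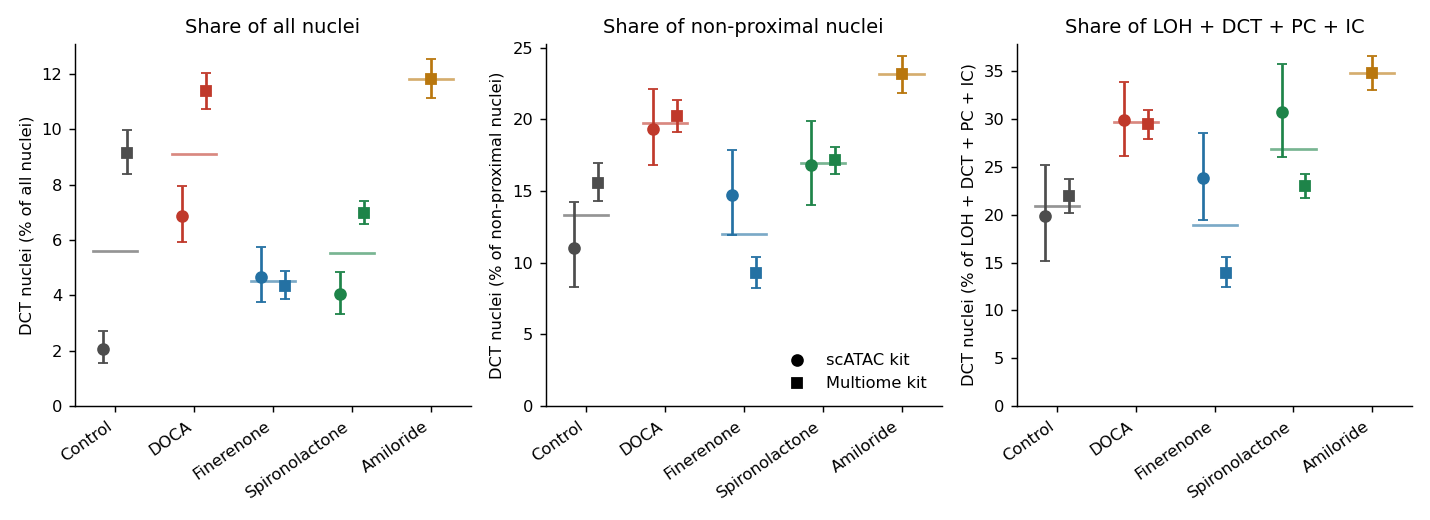
DCT nuclei as a percentage of all, non-proximal and distal (LOH, DCT, PC and IC) nuclei, 1 point per library (circles scATAC, squares Multiome) with 95% Clopper-Pearson intervals and a line at the group mean. In the non-proximal and distal panels both DOCA libraries (19.4% and 20.2%, then 29.9% and 29.5%) lie above both Control libraries, and the Amiloride library is the highest in each panel.

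Ratios to the neighbouring segments do not depend on the proximal tubule. Per LOH nucleus, Control kidneys gave 0.505 and 0.556 DCT nuclei and DOCA kidneys 0.794 and 0.890. The ratio was 0.538 and 0.247 with Finerenone, 0.948 and 0.519 with Spironolactone and 2.51 with Amiloride. The DOCA libraries lay above both Control libraries, the Spironolactone libraries on either side of DOCA, and the Amiloride library above every other. Its LOH nuclei were 13.9% of distal nuclei, against 32.4% to 56.3% in the other 8 libraries, so the ratio was high on the LOH side as well as on the DCT side. Of the 9 DCT measures compared over the 5 groups by an exact two-sided permutation of group labels within kits, this ratio had the lowest p (F = 6.65, exact permutation p = 0.075, adjusted p = 0.63 over the 9 measures). Without the Amiloride library F was 2.45 (exact permutation p = 0.333), and the ratio to PC and the share of DCT nuclei with a PC neighbour (exact permutation p = 0.167 for both) and the non-proximal share (exact permutation p = 0.292) then had lower values, with the distal share equal to it. The smallest p that this design allows is 0.00833.

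DCT and PC nuclei were recovered in closer proportion. The number of DCT nuclei per PC nucleus was 1.11 and 1.41 in Control, 1.12 and 1.20 in DOCA, 1.104 and 0.918 in Finerenone, 1.47 and 1.41 in Spironolactone and 1.22 in Amiloride. Finerenone Multiome was the only library with fewer DCT than PC nuclei, and every other group lay within 1.11 to 1.47. The highest ratio was 1.60 times the lowest, against 10.2 times for the ratio to LOH, which was 3.83 times without the Amiloride library. Per IC nucleus there were 0.864 and 0.951 DCT nuclei in Control, 5.31 and 2.26 in DOCA, 2.30 and 0.960 in Finerenone, 1.93 and 1.39 in Spironolactone and 1.54 in Amiloride, where the Control libraries were lowest and those of DOCA and Finerenone each differed more than 2-fold between kits. The ratio to PC gave p = 0.242 (exact permutation, adjusted p = 0.63), and the ratio to IC was not tested.

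Over the 5 groups the DCT share gave an exact permutation p of 0.5 for all nuclei, 0.325 for non-proximal nuclei and 0.2 for distal nuclei (adjusted p = 0.643, 0.63 and 0.63). Of the 9 measures, 0 had a permutation p under 0.05, adjusted or not. At the smallest p that the permutation test allows here, 0.00833, a single measure could not reach an adjusted p of 0.05. This test needs no shared estimate of the spread, which limma draws from all labels of a denominator although shares of a whole are not independent.

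The border with PC was described per library first. A PC neighbour was found for 15.7% and 13.1% of DCT nuclei in Control, 14.7% and 14.8% in DOCA, 12.9% and 8.24% in Finerenone, 15.5% and 17.6% in Spironolactone and 14.7% in Amiloride. Finerenone Multiome (22 of 267 nuclei, 5.24% to 12.2%) was lowest and Spironolactone Multiome highest, and all scATAC intervals overlapped. With neighbours taken from the same library, Control Multiome was lowest (10.1%) and Finerenone scATAC highest (32.9%). A LOH neighbour was found for 11.8% and 12.4% in Control, 11.8% and 8.08% in DOCA, 12.9% and 15.4% in Finerenone, 17.3% and 11.7% in Spironolactone and 9.05% in Amiloride. DOCA Multiome was lowest and Spironolactone scATAC highest on this measure, but with neighbours from the same library Spironolactone scATAC was lowest (0.909%) and Control Multiome highest (15.02%), so the order of the libraries depended on which nuclei could be neighbours. For neither border did the comparison of the groups pass (exact permutation p = 0.35, adjusted p = 0.63 for PC, and p = 0.425, adjusted p = 0.638 for LOH).

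The same border was also read from the PC side. Of the PC nuclei, 32.6% and 24.2% had a DCT neighbour in Control, 42.1% and 40.1% in DOCA, 41.6% and 30.2% in Finerenone, 28% and 31.8% in Spironolactone and 44.8% in Amiloride. Both DOCA libraries lay above both Control libraries and both Spironolactone libraries. This measure was chosen after its values were seen and was not tested.

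**Figure D3:**
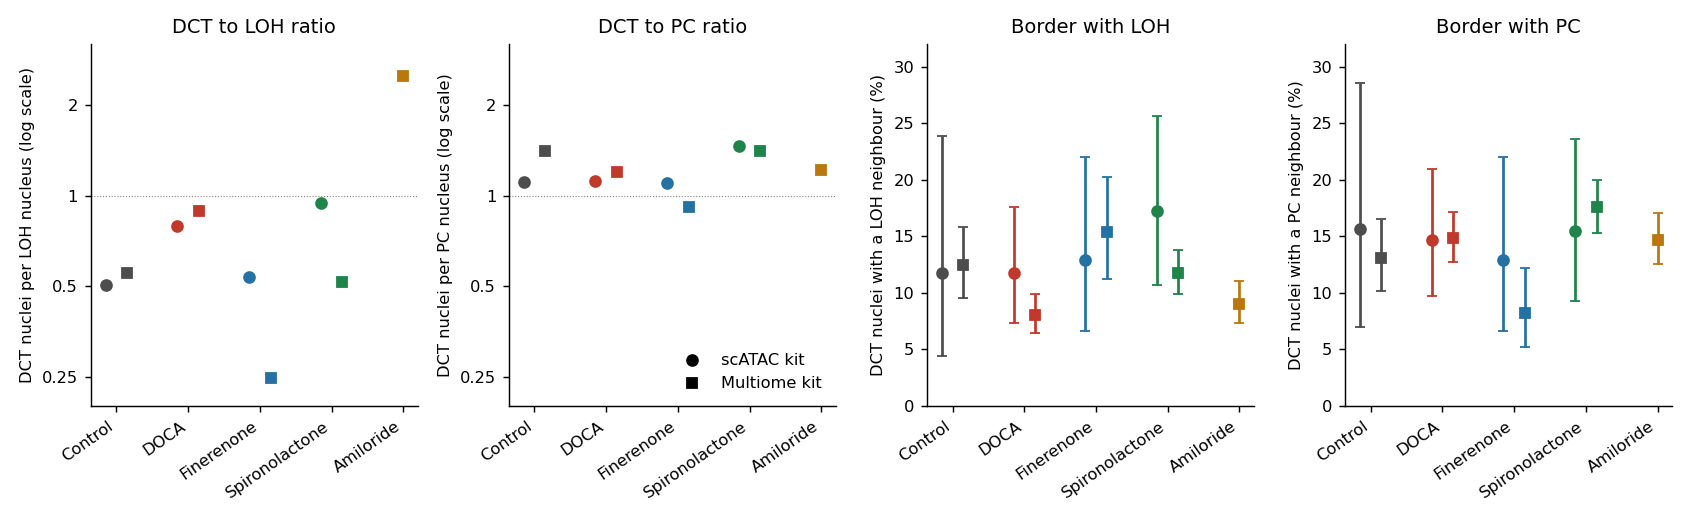
DCT nuclei per LOH and per PC nucleus (log axes, line at 1) and the percentage of DCT nuclei with a LOH or a PC nucleus among their 15 nearest (95% Clopper-Pearson intervals), 1 point per library. The ratio to LOH runs from 0.247 (Finerenone Multiome) to 2.51 (Amiloride) and that to PC from 0.918 to 1.47, while the border percentages stay between 8.08% and 17.6%.

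Where a library's DCT nuclei lay between the DCT and PC bodies was measured as a position on the line from the median DCT point (0) to the median PC point (1). The median position was -0.0058 and -0.055 in Control, 0.12 and 0.054 in DOCA, 0.14 and -0.081 in Finerenone, -0.048 and 0.11 in Spironolactone and -0.037 in Amiloride. Both DOCA libraries had higher positions on this line than both Control libraries, and the Finerenone and Spironolactone pairs each spanned 0. The position is a projection and does not measure contact with PC. A PC neighbour was found for 14.7% and 14.8% of DCT nuclei in DOCA, against 15.7% and 13.1% in Control. The comparison of the groups did not pass (exact permutation p = 0.825, adjusted p = 0.825).

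The spread of the DCT nuclei was taken as the median distance of a library's nuclei from their own median point. It was 1.09 and 0.740 UMAP units in Control, 1.33 and 1.22 in DOCA, 1.22 and 0.647 in Finerenone, 0.887 and 1.31 in Spironolactone and 0.879 in Amiloride. The DOCA libraries were above the Control libraries, and the values of the Finerenone pair lay 1.88-fold apart. With the mean distance in place of the median, Control scATAC (1.56) lay above both DOCA libraries (1.46 and 1.42). The test over the groups did not pass (exact permutation p = 0.775, adjusted p = 0.825). Over all libraries the median distance was 1.03 for DCT, 1.26 for LOH, 1.19 for PC and 0.810 for IC, and its 90th percentile was 2.49 for DCT, above the 2.16 of LOH, 1.99 of PC and 1.25 of IC.

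The DCT body was then divided into quadrants about its median point, a division chosen after the map was seen and for which no test is given. The lower right quadrant, 947 nuclei, held most of the border with PC: 53.7% of its nuclei had a PC neighbour, against 4.72% in the lower left, 5.49% in the upper right and none in the upper left. A LOH neighbour was found for 22.4% of nuclei in the lower right, 10.8% in the upper left, 7.90% in the lower left and 3.95% in the upper right. The lower left quadrant held 1165 nuclei, and PC made up 1.17% of their neighbours, between the 0.452% of the upper right and the 25.2% of the lower right.

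The libraries filled the lower left quadrant unequally. Of the DCT nuclei of the Control libraries it held 25.5% (14.3 to 39.6) and 11.8% (9.02 to 15.1), and of those of the DOCA libraries 50% (42.2 to 57.8) and 39.1% (36.1 to 42.1). The Finerenone values were 45.9% (35.02 to 57.04) and 15.4% (11.3 to 20.2), and the Spironolactone values 21.8% (14.5 to 30.7) and 36.3% (33.4 to 39.3). Amiloride had 11.8% (9.87 to 14.0). Both DOCA libraries lay above both Control libraries and above Amiloride. The DOCA mean was 44.5% ± 7.72 (SD, n = 2) and the Control mean 18.6% ± 9.68 (SD, n = 2), a difference of 25.9 percentage points, which ranged from 19.0 to 32.7 with 1 library of these groups left out. The Finerenone and Spironolactone pairs each had 1 library within the Control range and 1 within or near the DOCA range, with the scATAC library the higher in Finerenone and the Multiome library the higher in Spironolactone.

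The upper left quadrant held 27.5% and 31.97% of the DCT nuclei in Control, 8.24% and 13.8% in DOCA, 10.6% and 31.8% in Finerenone, 37.3% and 15.5% in Spironolactone and 33.6% in Amiloride. The 5 libraries lowest in the lower left were the 5 highest here, and the DOCA libraries lay below both Control libraries. The right-hand quadrants varied less, from 21.6% to 31.3% in the upper right and from 14.1% to 25.9% in the lower right, where both DOCA libraries (14.1% and 17.7%) lay below both Control libraries (25.5% and 24.9%).

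**Figure D4:**
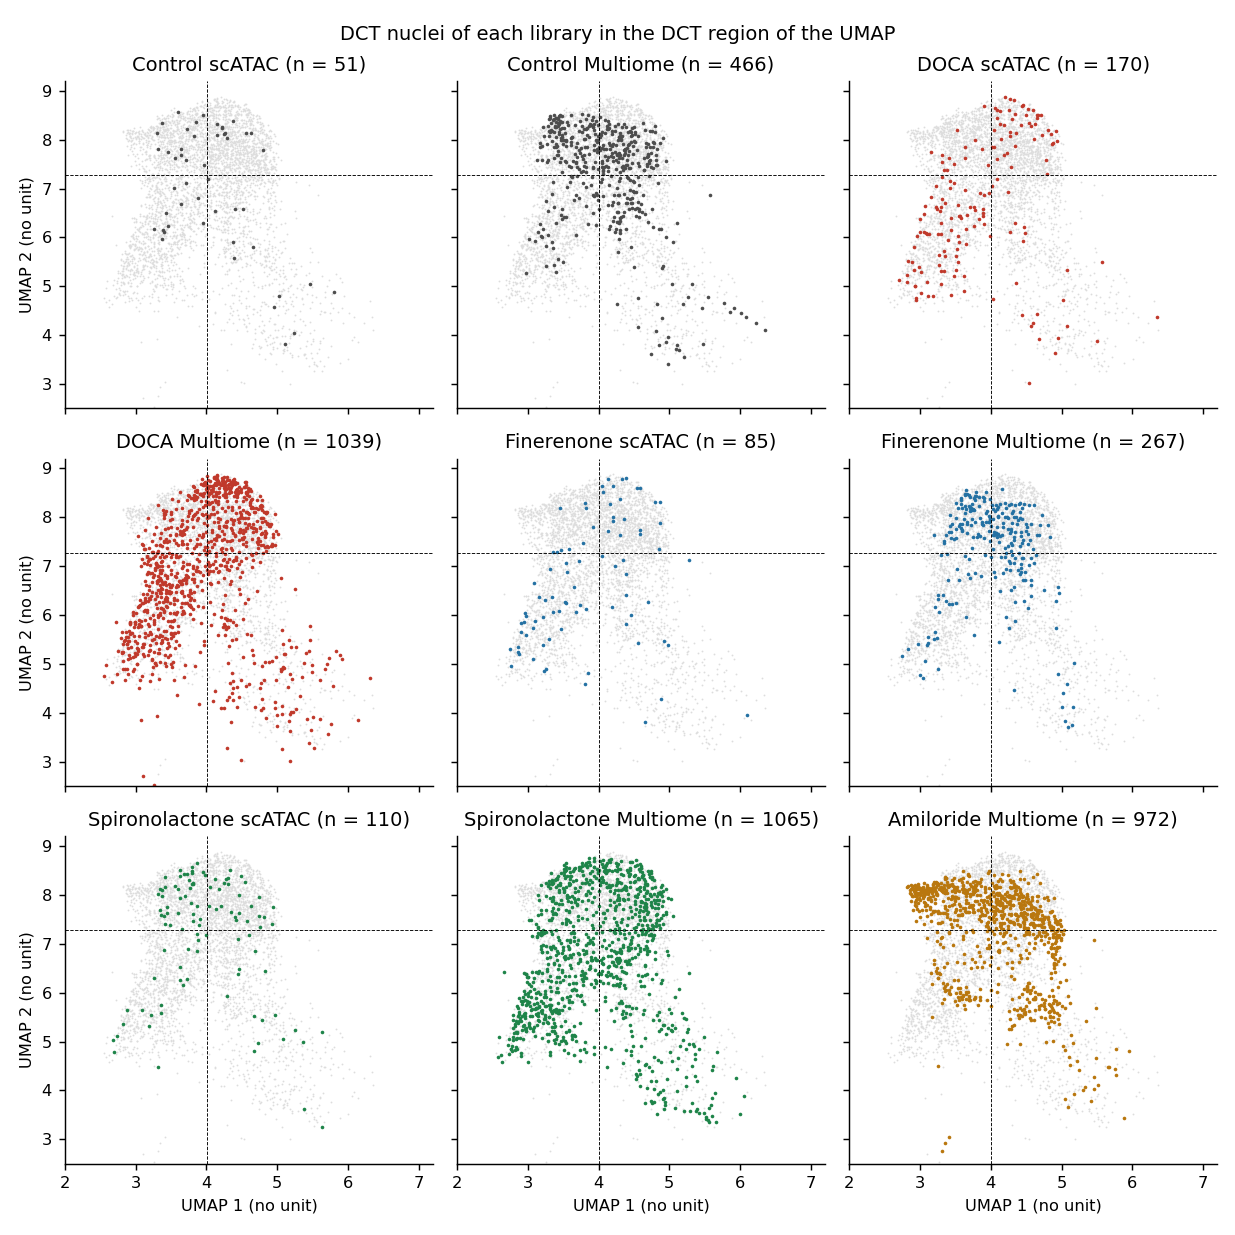
DCT nuclei of each library (coloured) over those of all libraries (grey) in the DCT region of the UMAP (axes without unit), with dashed lines at the median DCT point. The lower left quadrant holds 50% and 39.1% of DOCA, 45.9% of Finerenone scATAC and 36.3% of Spironolactone Multiome nuclei. It holds 11.8% of Control Multiome and of Amiloride, 15.4% of Finerenone Multiome, 21.8% of Spironolactone scATAC and 25.5% of Control scATAC nuclei.

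**Figure D5:**
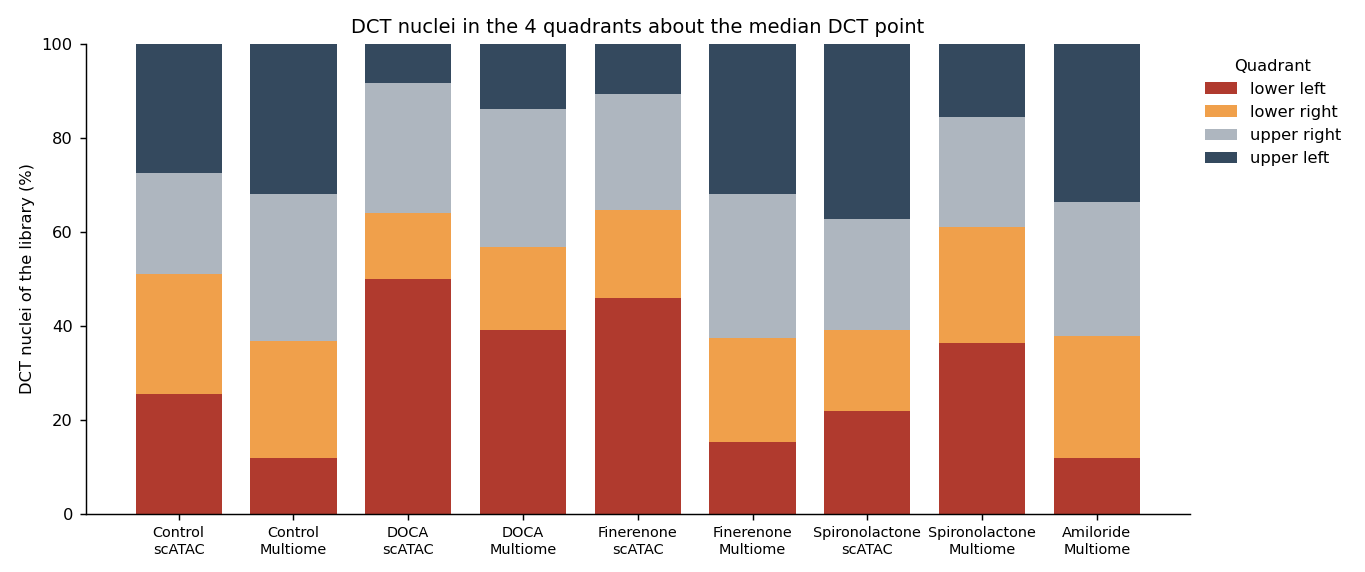
Percentage of each library's DCT nuclei in the 4 quadrants about the median DCT point, as bars that add to 100%, 1 bar per library. The lower left quadrant runs from 11.8% (Control Multiome and Amiloride) to 50% (DOCA scATAC), and within Finerenone and Spironolactone the libraries of the pair differ.

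Libraries also stayed partly apart within the DCT body after batch correction. Among the DCT neighbours of Amiloride DCT nuclei 45.2% came from the same library, which held 23.0% of all DCT nuclei, a ratio of 1.96 and the highest of the 9. The ratio was 1.66 for Control Multiome, 1.65 for Finerenone Multiome, 1.52 for DOCA scATAC and 1.33 for DOCA Multiome, and lay between 0.951 and 1.23 for the rest. The median DCT points of libraries of the same group were 0.420 to 1.28 UMAP units apart (4 pairs), those of the same kit and different groups 0.0394 to 1.18 (16 pairs, the closest being Control Multiome and Amiloride, whose codes share a stem) and those differing in both 0.192 to 1.25 (16 pairs). Distances between replicates thus overlapped distances between groups. The part that separation of libraries has in the quadrant values was not tested.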

How the data were processed

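The authors prepared nuclei from whole kidneys and aligned snATAC-Seq reads to rn6 with Cell Ranger ATAC 1.1.0. They merged and filtered nuclei in Signac 1.3.0, corrected batches with Harmony and labelled clusters from accessibility at marker genes. They also transferred labels to these nuclei from their single-nucleus RNA sequencing. Filters on nuclei act before deposit and can alter shares. The deposited metadata give names (library, treatment, cell type), and the deposited UMAP coordinates are a score without unit. No further filter or doublet caller was applied. The study's methods name another number of merged data sets than the 9 libraries used here. Treatment labels gave the groups. The kit of each library was inferred from shared barcodes, since the kits use different lists. Multiome pairs shared 53 to 244, scATAC pairs 5 to 13, and pairs across kits at most 1. The study names 5 samples made with the Multiome kit, as many as were inferred. Which library code belonged to which kit could not be checked otherwise.

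Nuclei were counted in Python 3.11.15 (pandas 2.3.3, numpy 2.4.6). With limma 3.58.1 in R 4.3.3 (functions lmFit, contrasts.fit and eBayes), log2 odds with a pseudocount of 0.5 added to the DCT count and to its remainder were modelled on group and kit over all 9 libraries. Benjamini-Hochberg adjustment ran across the 12, 9 or 4 labels of a denominator. The spread was shared between labels, in full over all and non-proximal nuclei and in part over distal nuclei, giving 36, 27 or 12 degrees of freedom where each label alone had 3. The permutation test used the F of group after kit over 2880 assignments (120 distinct), and its p values were adjusted over 9 measures; 2 libraries against 2 within kits cannot go below p = 0.5, so pairs of groups were not permuted. Intervals came from scipy 1.17.1, neighbours (15), DBSCAN pieces (distance 0.3, at least 10 nuclei) and k-means parts (4) from scikit-learn 1.9.0, and figures from matplotlib 3.10.9. In 200 simulated data sets for DOCA against Control over all nuclei (12 labels), log2 changes of 1.5 and 3 passed in 34.5% and 96.5% and the unchanged labels beside them in 1.73% and 7.05%, while with no change made DCT passed in 0.5%. The simulated labels had an equal, independent spread (SD 0.5 on the log2 scale) and no kit effect. The real libraries need not share these settings, so the pass rates are not the power of the real design. DCT was chosen as the subject, and the lists and tests were set, with earlier results of these data known. Quadrants, pieces, k-means parts, library mixing, the kit terms, the ratio to IC and the PC side of the border were added after the map or the values were seen. Alternatives were another scale, pseudocount, spread, set of groups, thinning, neighbour labels and leaving out each library.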

Additional observations from a re-analysis of the deposited data

How the results depend on the processing

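No analysis paired by rat was possible, because the groups compared share fewer than 2 replicate numbers in the sample titles. Kit, already a term, was the only block. With 1 library left out, the DCT change over all nuclei ranged from 0.20 to 1.93 (DOCA minus Control), -1.74 to -0.34 (Finerenone minus DOCA) and -0.18 to 0.21 (Amiloride minus DOCA). Over non-proximal nuclei Finerenone ranged from -1.38 to -0.40, and over distal nuclei from -1.31 to -0.50. The all-nuclei change passed without the Control Multiome library (DOCA) and without the Finerenone scATAC library, as did the non-proximal Finerenone change without the latter (limma adjusted p = 0.0335) and the distal one without the DOCA scATAC library. Other settings under which a change passed in limma were the 2 groups alone (Spironolactone, all nuclei, -0.79, adjusted p = 0.0395, and DOCA, distal, 0.67, adjusted p = 0.0424), the centred log-ratio (Finerenone, non-proximal, -0.99, adjusted p = 0.0425, and DOCA, distal, 0.62, adjusted p = 0.044), and, for distal Finerenone, the arcsine scale (-0.13 on that scale, adjusted p = 0.0322) and a pseudocount of 5 (-0.88, adjusted p = 0.039). The Amiloride change over all nuclei, near 0, turned positive without a kit term (0.46), on the arcsine scale (0.0089), as a centred log-ratio (0.29), with a pseudocount of 5 (0.0060), with thinned libraries (0.34), with the neighbours' labels (0.063), without either Control library (0.21) and without the DOCA scATAC library (0.063). The cause of these moves was not tested. No permutation result changed its call. Amiloride against DOCA with 2 groups alone leaves no residual degrees of freedom and was not run.

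The DOCA minus Control difference in the lower left share was 24.2 to 29.0 percentage points with the mean point or with mostly-DCT nuclei alone and 19.0 to 32.7 with 1 library left out. A k-means division of mostly-DCT nuclei gave 0, because its part nearest the lower left was a separate piece of 26 nuclei, all from Amiloride. Restricted to the main body, a form added after that result was seen, k-means gave 21.8. All of these settings were chosen after the data were seen. Depth limits the scATAC values most, with 51 DCT nuclei in Control and 85 in Finerenone.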

Other observations

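A small piece of DCT nuclei lay apart from the rest of the label on the UMAP, near the coordinates 4.25 and -0.67. It was found after the map was seen, with DBSCAN at a distance of 0.3, where the main body held 4098 nuclei (97.0%), 98 nuclei were scattered and the piece held 29. Of these 29 nuclei, 27 came from the Amiloride library (2.78% of its DCT nuclei) and 2 from the Finerenone Multiome library, and the other 7 libraries had none. Among the 15 nearest nuclei of its members 90.3% were DCT and 7.59% proximal convoluted tubule, and 91.5% came from the Amiloride library. At distances of 0.2 and 0.5, which were also tried, the piece held 23 and 35 nuclei, of which 23 and 29 came from Amiloride. No gene or peak values were used to describe it.

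Some nuclei near the DCT border carried a label that differed from most of their neighbours. There were 86 PC nuclei and 37 LOH nuclei whose neighbours were mostly DCT, and 96 DCT nuclei had no DCT neighbour. Giving each nucleus the most frequent label of its neighbours left 4076 DCT nuclei, with 363 lost to other labels and 103 gained from PC. Doublets and ambient chromatin were not examined, and their part in these nuclei was not tested.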
